A study of Homo sapiens with 4 samples.

Results

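MDM2, MDM4, PPM1D and CDKN1A are 4 of the 26490 genes listed in a table of RNA bound by the DEAH-box helicase DHX36. They were taken by name, as regulators of the tumour suppressor p53 and its best known target, and not by a cut on any value in the table. Earlier results of these data were known when they were chosen. The transcript of p53 itself was not analysed here. PAR-CLIP was performed in HEK293, a human embryonic kidney cell line, with 2 replicates in each of 2 stable lines that carried a tetracycline-inducible FLAG/HA-tagged transgene. One line expressed FH-DHX36, which the labels name as isoform 2, and the other FH-DHX36-E335A, a helicase-dead mutant that the labels name as isoform 1, so that isoform and mutation cannot be told apart. In both lines 500 ng per ml of tetracycline was given for 15 h, and RNA in cells labelled with 4-thiouridine was crosslinked by 365 nm light for 5 min before precipitation with a FLAG antibody. The tagged protein was made on top of the cells' own DHX36. The table holds 1 value per cell line, so that no spread between replicates and no test between the lines could be had, and each value is the authors' value for that PAR-CLIP.

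p53 is a transcription factor that halts division or triggers cell death after DNA damage. MDM2 is the ubiquitin ligase that marks p53 for destruction, MDM4 is its relative that masks the activating domain of p53, and PPM1D (also called WIP1) is a phosphatase that removes damage-induced phosphates from p53 and its kinases. CDKN1A encodes p21, an inhibitor of cyclin-dependent kinases that p53 switches on, and MDM2 and PPM1D are p53 target genes as well, so that they act as feedback brakes. HEK293 cells carry adenovirus early genes whose products bind p53. DHX36 unwinds G-quadruplexes, which are stacks of guanine tetrads, and was first described by its association with AU-rich elements.

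All 4 genes lie on the plus strand of GRCh37, the build of the deposited table. MDM2 is at chr12:69201957-69239324, with 11 exons, and its coding sequence (CDS) spans 1494 nt before a 3'UTR of 5695 nt. MDM4 is at chr1:204485534-204527248, also with 11 exons, and its CDS of 1473 nt precedes a 3'UTR of 8438 nt. PPM1D is at chr17:58677554-58743641, with 6 exons, of which 1818 nt are coding and 2728 nt are 3'UTR. CDKN1A is at chr6:36646491-36655109, with 3 exons, of which 495 nt are coding and 1532 nt are 3'UTR. The 5'UTRs span 301, 139, 222 and 90 nt in the same order.

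Guanine runs were looked for in these transcripts because the study relates DHX36 to G-rich RNA. A match was at least 4 runs of at least 2 G, separated by 1 to 7 bases, on the sense strand and without overlap of matches. The sequences below come from the GRCh37 genome and show examples of at most 30 nt from the coding sequences of MDM2, MDM4 and PPM1D, and the 4 sites of the CDKN1A 3'UTR, the region of that gene with the most reads. Capitals mark the runs of G.

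MDM2 CDS, exon 9, chr12:69229639-69229657: GGtgattGGttGGatcaGG
MDM4 CDS, exon 8, chr1:204511954-204511980: GGctGGaccttGGatttgaGGagtGGG
MDM4 CDS, exon 11, chr1:204518308-204518327: GGGccttgaGGaaGGattGG
PPM1D CDS, exon 1, chr17:58678091-58678112: GGGcacGGcGGGcGGGaGGcGG
PPM1D CDS, exon 6, chr17:58740361-58740383: GGaGGaGGatccatGGccaaGGG
CDKN1A 3'UTR, exon 3, chr6:36653868-36653885: GGaGGttGGGtGGGccGG
CDKN1A 3'UTR, exon 3, chr6:36654208-36654231: GGcaGGGGGaaGGtGGGGtcctGG
CDKN1A 3'UTR, exon 3, chr6:36654475-36654492: GGactGGaaGGGGaaGGG
CDKN1A 3'UTR, exon 3, chr6:36654769-36654794: GGtGGcagtagaGGctatGGacaGGG

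The table gives no positions of clusters, so that no site could be placed under a cluster. MDM2 held 1 match in its CDS and 1 in its 3'UTR. The MDM4 5'UTR held 1, its CDS 2 and its 3'UTR 9. The PPM1D 5'UTR held 1 and its CDS 4, with 0 past the stop codon, and for CDKN1A the counts were 1, 2 and 4. All of these are runs of at least 2 G. With runs of at least 3 G, the 3'UTRs of MDM2 and MDM4 held 1 match each, and PPM1D and CDKN1A none. Such a match was held by 25.8%, 30.6%, 20.7% and 17.6% of 3'UTRs of like length (within 20%), for MDM2, MDM4, PPM1D and CDKN1A in turn.

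Each of the 4 transcripts carried clusters of both proteins, a cluster being a stretch of overlapping reads with the T-to-C conversions that 4-thiouridine crosslinks leave. For comparison, 22.4% of all listed genes had an FH-DHX36 cluster and 34.5% an FH-DHX36-E335A cluster. Shares of all listed genes, here and below, were not matched for RNA abundance. On MDM2 the table lists 5 clusters with 517 crosslinked reads for FH-DHX36 and 24 clusters with 4264 reads for FH-DHX36-E335A. On MDM4 it lists 5 clusters with 349 reads and 23 clusters with 1218 reads. PPM1D had 1 FH-DHX36 cluster with 63 reads and 11 FH-DHX36-E335A clusters with 404 reads, and CDKN1A had 3 clusters with 81 reads and 7 clusters with 483 reads. Every gene thus had more clusters and more reads with the mutant, in a PAR-CLIP that holds 8752127 crosslinked reads in all compared with 2160413 for FH-DHX36, a ratio of 4.05. Of all 5669 genes with clusters of both proteins, only 868 had more reads with FH-DHX36. All 4 had at least 2 mutant clusters, as did 28.6% of listed genes, and 3 of 4 had at least 2 FH-DHX36 clusters, as did 12.7%. DHX36 itself, the gene that the transgenes express, had 19208 and 30909 reads.

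Set against all genes with a cluster, MDM2 and MDM4 stood in the upper part of the list by reads, while PPM1D and CDKN1A lay above the median number of reads with the mutant and below it with FH-DHX36. By reads, MDM2 ranked 393 of 9131 mutant-bound genes and 939 of 5930 genes bound by FH-DHX36, and MDM4 ranked 1772 and 1363. PPM1D ranked 4052 and 4062, and CDKN1A 3648 and 3613. By clusters, MDM2 ranked 225 and MDM4 258 with FH-DHX36-E335A, where the median gene carried 5 clusters.

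NXPM, the authors' score of depth-scaled crosslinked reads divided by RNA abundance, put the genes in another order. MDM4 was highest, with an NXPM of 102 for FH-DHX36 (95% Poisson interval of its reads, 91.5 to 113) and 87.8 for FH-DHX36-E335A (83.0 to 92.9). MDM2 followed with 23.1 (21.2 to 25.2) and 47.1 (45.7 to 48.5). PPM1D had 5.77 (4.44 to 7.39) and 9.14 (8.27 to 10.1), and CDKN1A 1.87 (1.48 to 2.32) and 2.75 (2.51 to 3.01). The order was the same in both PAR-CLIPs, and none of the intervals of neighbouring genes overlapped. They cover counting error only, since reads of a cluster are not independent molecules and the spread between replicates is unknown.

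Both NXPM values of a gene share the same RNA abundance, which could be recovered from reads and NXPM. It was 1.58 for MDM4, 5.05 for PPM1D, 10.3 for MDM2 and 20.1 for CDKN1A, in the length-scaled units of the authors' Cufflinks values. CDKN1A was thus the most abundant of the 4 RNAs and had the lowest NXPM, and MDM4 was the least abundant and had the highest. Abundance is the divisor of NXPM, so that an inverse order is partly built in. PPM1D was less abundant than MDM2 and yet had the lower NXPM. Because NXPM is not divided by length, it was also taken per kb of spliced transcript. This is not a density on the transcript, since NXPM counts intronic reads and the length leaves introns out. Introns held 77.4% of the FH-DHX36 reads on MDM2, 39.5% on MDM4 and 100% on PPM1D. MDM4 then had 10.1 and 8.74 NXPM per kb, MDM2 3.09 and 6.29, PPM1D 1.21 and 1.92, and CDKN1A 0.883 and 1.30, for FH-DHX36 and FH-DHX36-E335A. The median over genes with a cluster in that PAR-CLIP and a canonical transcript was 2.02 (5592 genes) and 1.59 (8616 genes). On this scale the FH-DHX36 intervals of PPM1D (0.930 to 1.55) and CDKN1A (0.701 to 1.10) overlapped, so that these neighbours were not separated beyond counting error.

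**Figure D1:**
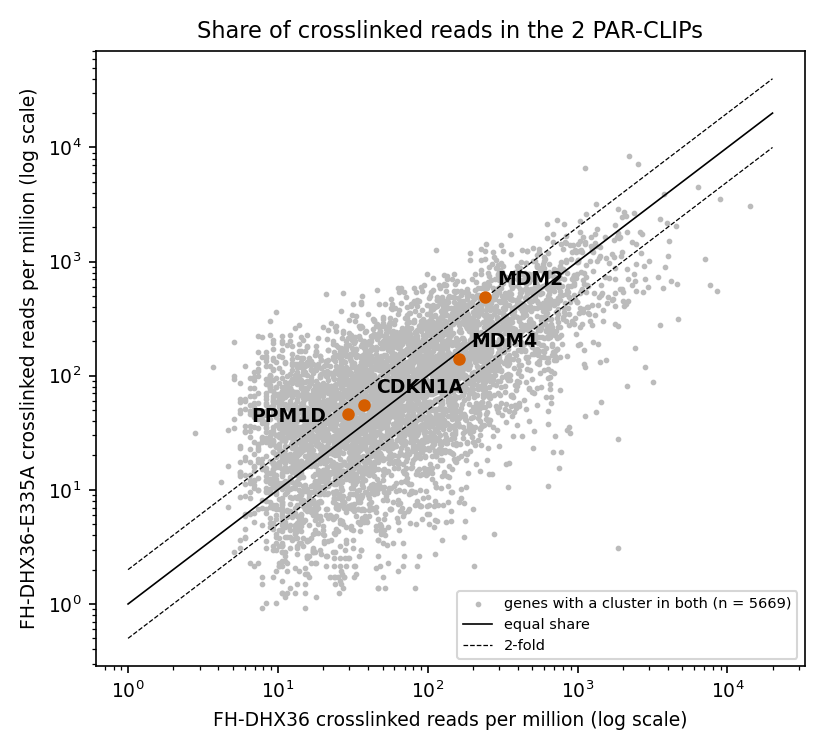
Share of crosslinked reads in RPM, the reads of a gene put on a common depth, in the FH-DHX36 (x axis) and FH-DHX36-E335A (y axis) PAR-CLIP, both on log scales, for the 5669 genes bound by both proteins (grey) and the 4 genes described (orange). MDM2 lies at 239 and 487, near the upper 2-fold line, and MDM4 at 162 and 139 lies just under the line of equal share.

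Scaled to the total of each PAR-CLIP, the transcripts of MDM2, PPM1D and CDKN1A took a larger share of reads with the helicase-dead protein, and MDM4 a slightly smaller one. The share of MDM2 was 239 RPM in the FH-DHX36 PAR-CLIP and 487 in that of the mutant, 2.04-fold higher with the mutant (95% conditional binomial interval, 1.86 to 2.23). For PPM1D the shares were 29.2 and 46.2 RPM, a ratio of 1.58 (1.21 to 2.10), and for CDKN1A 37.5 and 55.2, a ratio of 1.47 (1.16 to 1.89). For MDM4 they were 162 and 139, a ratio of 0.861 (0.764 to 0.973). The share was higher with the mutant on 3 of the 4 genes and on 53.4% of the 5669 genes bound in both PAR-CLIPs. A ratio of at least 2 was reached by MDM2 alone, and by 28.6% of all these genes. None of the 4 was at least 2-fold higher with FH-DHX36, compared with 24.8% of all. The MDM4 direction turned when only reads in the 5'UTR, CDS and 3'UTR were counted, with a ratio of 1.16, and the MDM2 ratio was then 8.44.

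The reads of the p53 regulators lay in different parts of the gene in the PAR-CLIPs. With FH-DHX36 the introns took most reads on MDM2 and PPM1D and a large share on MDM4, and with FH-DHX36-E335A the CDS and 3'UTR took most of them. MDM2 had 400 of its 517 FH-DHX36 reads, or 77.4% (95% Clopper-Pearson interval, 73.5% to 80.9%), in 1 intronic cluster, and 37 of 4264 FH-DHX36-E335A reads, or 0.868% (0.612% to 1.19%), in 1 intronic cluster. MDM4 had 138 of 349 reads, or 39.5% (34.4% to 44.9%), and 16 of 1218, or 1.31% (0.753% to 2.12%), again in 1 cluster each. On PPM1D all 63 FH-DHX36 reads came from 1 intronic cluster, and 16 of 404 FH-DHX36-E335A reads, or 3.96% (2.28% to 6.35%), lay in 1 intronic cluster. CDKN1A had no intronic cluster in either PAR-CLIP. Its introns span 6502 nt in all, and a relation of intronic clusters to intron length was not tested.

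These are fewer intronic reads in the PAR-CLIP with more reads in total. Among the 804 genes with intronic clusters in both, 39.9% had more intronic reads with FH-DHX36, and MDM2, MDM4 and PPM1D were among them. As a share of all reads, the intronic reads were 43.8-fold higher with FH-DHX36 on MDM2 (31.2 to 63.1), 34.9-fold on MDM4 (20.8 to 62.8) and 16-fold on PPM1D (9.10 to 29.6). At least 2-fold was reached by 60.7% of the 804 genes and at least 10-fold by 17.2%. At least 2-fold higher intronic shares with the mutant were seen on none of the 3 and on 7.96% of the 804. Among 1440 genes with an intronic FH-DHX36 cluster, MDM2 ranked 66 by intronic reads and 37 by reads per intronic cluster. An intronic cluster was present on 24.3% of genes bound by FH-DHX36 and 23.9% of genes bound by the mutant. Per kb of intron the FH-DHX36 density was 13.4 reads on MDM2, 4.36 on MDM4 and 1.03 on PPM1D, and the mutant density 1.24, 0.505 and 0.261. Whether the clusters of both proteins lay in the same intron was not tested, since the table does not place them.

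An intronic share at least 20 percentage points higher with FH-DHX36 was found on 3 of the 4 genes, by 76.5 points on MDM2, 38.2 on MDM4 and 96.0 on PPM1D, and on 13.1% of all genes bound in both. With at least 50 reads in both PAR-CLIPs, which all 4 genes had, the share of all genes was 12.1%. The reverse, at least 20 points higher with FH-DHX36-E335A, was found on none of the 4 and on 3.05% of all. On the same 3 genes the CDS share was higher with FH-DHX36-E335A by 50.4, 28.4 and 49.3 points, a step of at least 20 points that 12.6% of all genes showed, while 23.7% showed such a step in CDS share towards FH-DHX36 and none of the 4 genes did. Both steps together were found on 4.04% of all genes. The steps are not independent, since the region shares of a gene sum to the whole, and the 20-point step was chosen after the values were seen. On PPM1D, which had no FH-DHX36 reads outside introns, the CDS share could not fall with the mutant. Each of these values on an intron rests on a single cluster, and introns held 8.51% of all FH-DHX36 reads and 4.48% of all FH-DHX36-E335A reads.

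**Figure D2:**
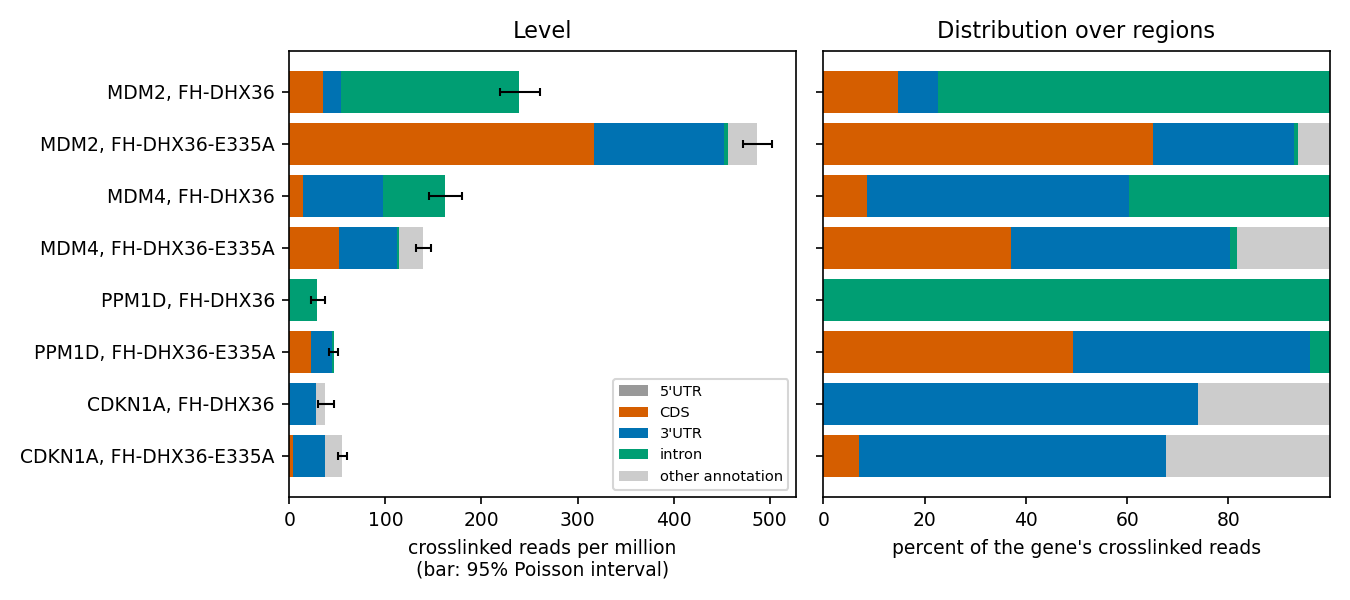
Crosslinked reads of each gene in each PAR-CLIP by annotation, in RPM with the 95% Poisson interval of the gene's total (left) and as a percentage of the gene's reads (right). The green intronic part fills 77.4%, 39.5% and 100% of the FH-DHX36 bars of MDM2, MDM4 and PPM1D and under 4% of their FH-DHX36-E335A bars.

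With FH-DHX36-E335A the coding sequence of MDM2 stood out. It held 2777 reads in 7 clusters, 65.1% of the gene's reads (63.7% to 66.6%), while the 3'UTR held 1185 reads in 13 clusters, or 27.8%, 1 intronic cluster held the 37 reads given above, and 3 clusters outside the annotated categories held 265 reads. By CDS reads MDM2 ranked 52 of 5949 genes with a CDS cluster. On MDM4 the CDS held 451 reads in 6 clusters, or 37%, and the 3'UTR 528 reads in 14 clusters, or 43.3%. On PPM1D the 199 reads of 6 CDS clusters, or 49.3%, and the 189 reads of 4 clusters in the 3'UTR, or 46.8%, had overlapping intervals. On CDKN1A the CDS held 34 reads in 1 cluster, or 7.04%, and the 3'UTR 293 reads in 4 clusters, or 60.7%. MDM2 and PPM1D thus had the CDS as their leading region, as did 20.4% of all genes with an FH-DHX36-E335A cluster. The 3'UTR led on MDM4 and CDKN1A, as on 53.4% of all, and introns led on none of the 4 and on 6.71% of all. With FH-DHX36 introns led on MDM2 and PPM1D and on 13.5% of all bound genes, the 3'UTR on MDM4 and CDKN1A and on 37.2%, and the CDS on none of the 4 and on 28.8%. Clusters outside the categories were present on MDM2, MDM4 and CDKN1A with the mutant, as on 45.4% of its bound genes, and on CDKN1A with FH-DHX36, as on 20.9%.

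The CDS makes up 19.9% of the MDM2 transcript and 14.7% of the MDM4 transcript, and reads were therefore also taken per kb of region, which turned the order of CDS and 3'UTR on MDM4. MDM2 had 1859 FH-DHX36-E335A reads per kb of CDS and 208 per kb of 3'UTR, a density 8.93-fold higher in the CDS (8.34 to 9.57). MDM4 had 306 and 62.6 reads per kb, 4.89-fold higher in the CDS (4.31 to 5.56), and PPM1D 109 and 69.3, 1.58-fold higher (1.29 to 1.94). CDKN1A had 68.7 and 191 reads per kb, and was 2.78-fold higher in the 3'UTR (1.95 to 4.10). The 4 genes therefore did not share a direction. The median ratio of CDS over 3'UTR density among 4511 genes with clusters in both regions was 0.453, and MDM2 lay above 96.2% of them, MDM4 above 92.4%, PPM1D above 77.6% and CDKN1A above 44.7%.

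**Figure D3:**
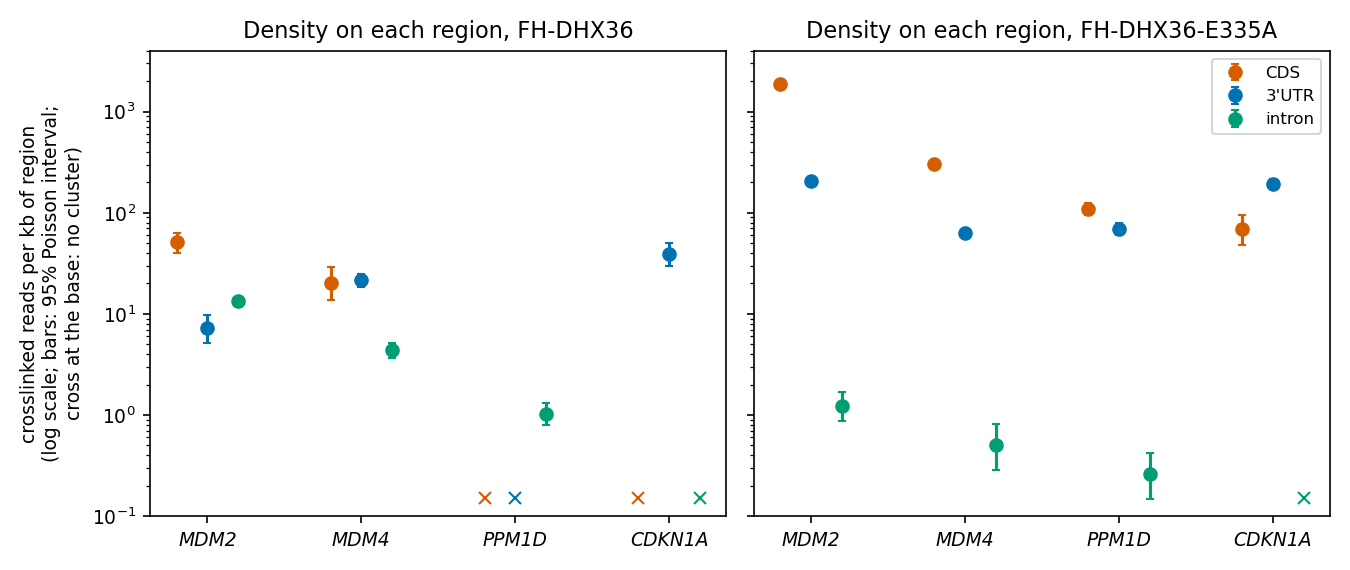
Crosslinked reads per kb of CDS, 3'UTR and introns on a log scale, with 95% Poisson intervals, for FH-DHX36 (left) and FH-DHX36-E335A (right), where a cross stands for a region without a cluster. The MDM2 CDS is the highest point at 1859 reads per kb with FH-DHX36-E335A, and CDKN1A has its higher point in the 3'UTR.

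With FH-DHX36 the exonic clusters were few. All but PPM1D had at least 1, as did 19% of listed genes, while all 4 had 1 with the mutant, as did 32.2%. MDM2 had 76 reads in 2 CDS clusters and 41 reads in 2 clusters of the 3'UTR, and per kb the CDS was again higher, by 7.07-fold (4.77 to 10.6). MDM4 had 30 reads in 1 CDS cluster and 181 reads in 3 clusters of the 3'UTR, and the densities of 20.4 and 21.5 reads per kb had overlapping intervals. CDKN1A had 60 reads in 2 clusters of the 3'UTR and 21 reads in 1 cluster outside the categories, and PPM1D had no exonic cluster. As a share of all reads of each PAR-CLIP, the CDS reads were 9.02-fold higher with FH-DHX36-E335A on MDM2 (7.18 to 11.5) and 3.71-fold on MDM4 (2.56 to 5.56). In the 3'UTR the ratio was 7.13 on MDM2 (5.23 to 9.99), 1.21 on CDKN1A (0.910 to 1.62) and 0.720 on MDM4 (0.607 to 0.857), so that the interval of CDKN1A included an equal share. None of the 4 genes had a 5'UTR cluster in either PAR-CLIP, where 18.6% of genes with an FH-DHX36 cluster and 20.4% of genes with an FH-DHX36-E335A cluster had one.

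The coding sequences of MDM2, MDM4 and PPM1D held no more G-run matches than the median of others of like length, and that of CDKN1A held 2 where the median was 1. The MDM2 CDS, with the highest density, held the 1 match printed above, and 89.8% of the 4461 coding sequences within 20% of its length held at least 1, with a median of 3. The MDM4 CDS held 2, where 89.7% of 4485 like-sized coding sequences held at least 1 and the median was 3. The PPM1D CDS held 4 matches, equal to the median, with at least 1 match in 90.7% of its like-sized set. The CDKN1A 3'UTR held 4 matches compared with a median of 2, and 75.8% of like-sized 3'UTRs held at least 1. The 3'UTRs of MDM2 with 1 match and PPM1D with none were below their medians of 6 and 3, in sets of which 94.6% and 84.9% held a match, while MDM4 with 9 equalled its median in a set of which 98.3% did. The 5'UTRs of MDM4, PPM1D and CDKN1A held 1 match each, and that of MDM2 none. At least 1 was held by 56.3%, 70.6%, 42.8% and 78.4% of like-sized 5'UTRs, in that order. A match is a pattern of letters, and folding was not measured here.

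The genes whose reads were spread most like those of each member were found over both PAR-CLIPs, by the points of region share that differ, among 4248 genes with at least 50 reads in each. For MDM2 they were FAXC, CUL3 and CEP57, at 10.4, 10.8 and 13.5 points, where the median gene was at 69.3. For MDM4 they were CEP170, NF2 and ARHGEF2, at 11.1, 15.1 and 16.3 points, compared with a median of 52.4. SNRNP40, ARHGAP5 and MINPP1 were nearest to PPM1D, at 2.27, 4.61 and 6.05 points, and all 3 had their FH-DHX36 reads entirely in introns. CBX8, TMEM186 and GFER were nearest to CDKN1A, at 3.31, 4.27 and 7.19 points. Among the 4 genes, MDM2 and PPM1D were the closest pair at 22.4 points and MDM2 and CDKN1A the farthest at 75.5.

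The wider p53 pathway was described with a list of 24 regulators of the p53 protein and a list of 28 p53 target genes. FH-DHX36-E335A clusters were present on 21 of the 24 regulators and 22 of the 28 targets, and FH-DHX36 clusters on 18 of each, compared with 34.5% and 22.4% of all listed genes. The comparison was not matched for RNA abundance, and 17098 of the 26490 listed genes had no cluster in either PAR-CLIP. Whether the lists differ from genes of like abundance was not tested. None of the 36 list genes with an FH-DHX36 cluster was bound by FH-DHX36 alone, compared with 261 of all 5930 such genes. Of the 18 regulators bound in both, 8 had a share of reads at least 2-fold higher with the mutant and 2 a share that much lower, and of the 18 targets 7 and 2, next to 28.6% and 24.8% of all genes. The median ratio was 1.5 for regulators and 1.60 for targets, compared with 1.09 for all genes bound in both. The intronic step of at least 20 points seen on MDM2, MDM4 and PPM1D was present on 3 of the 18 regulators and 0 of the 18 targets, compared with 13.1% of all genes bound in both, so that the regulators' count was near the background.

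Among the regulators the most FH-DHX36-E335A reads were on RPL11 (3633) and RPL5 (2797), ribosomal proteins that bind MDM2, followed by the p53 kinase gene HIPK2 (2683), CSNK1A1 (2511), which encodes casein kinase 1 alpha, the MDM2 partner TRIM28 (1635) and the ubiquitin ligase gene RCHY1 (1351). Outside the annotated categories lay 97.7% of these reads on RPL11 and 88.4% on RPL5. The FH-DHX36-E335A NXPM of RPL11 and RPL5 was 0.257 and 0.162, where the median bound gene had 5.66. Of the 36 list genes bound in both PAR-CLIPs, TRIM28 alone had more reads for FH-DHX36, compared with 868 of all 5669 genes bound in both. Its 2180 FH-DHX36 reads all lay in the CDS, and its share was 5.40-fold higher with FH-DHX36. Among the targets, PMAIP1, which encodes the death protein NOXA, had 20416 reads, of which the 3'UTR held 13923. It was followed by the exonuclease gene AEN (5366), the cyclin gene CCNG1 (4860), the damage-response gene GADD45A (3432), PHLDA3 (3417), which encodes an AKT inhibitor, and BBC3 (3278), which encodes the death protein PUMA. PHLDA3 had 1864 of its 2246 FH-DHX36 reads in the 5'UTR, a region in which the 4 genes above had no cluster. MDM2 with 4264 reads would stand above the regulators of the list, MDM4 lay above the median of 964 reads over the 43 list genes with an FH-DHX36-E335A cluster, and CDKN1A and PPM1D lay below it.

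**Figure D4:**
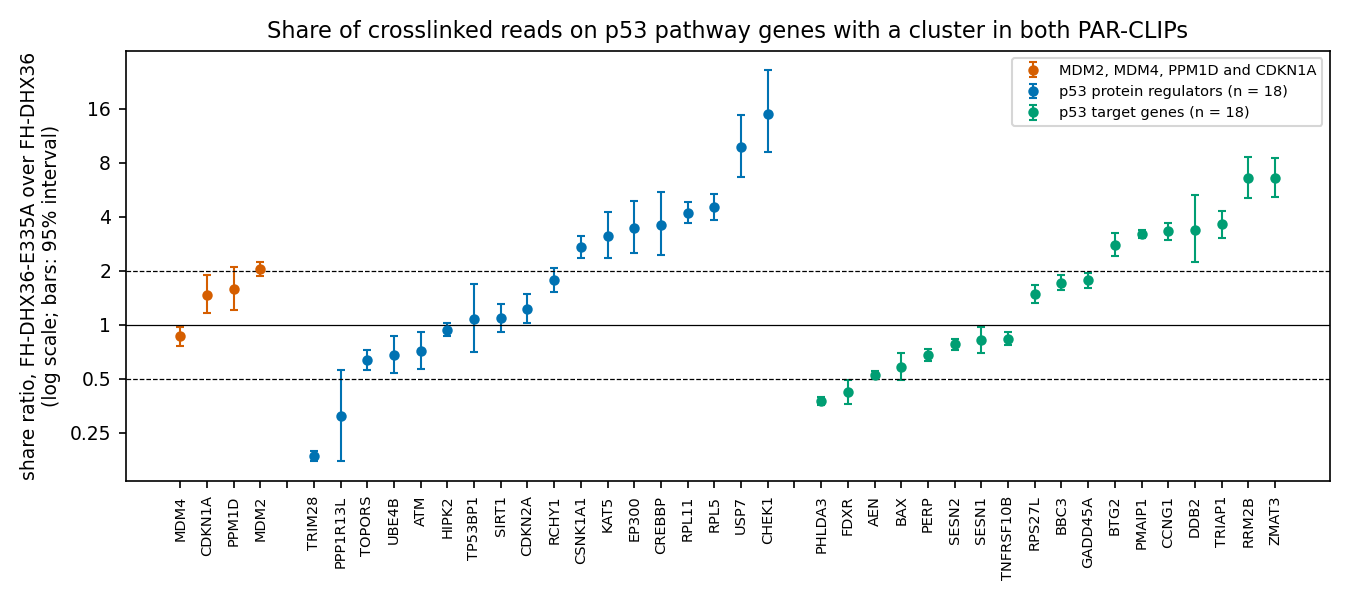
Share of crosslinked reads with FH-DHX36-E335A over the share with FH-DHX36, on a log scale with 95% conditional binomial intervals, for the 4 genes (orange), 18 regulators (blue) and 18 targets (green) bound by both proteins. The 4 genes lie between 0.861 and 2.04, and the lists reach from 0.185 for TRIM28 to 14.9 for CHEK1. The CHEK1 ratio (9.11 to 26.1) rests on 16 FH-DHX36 reads in 1 cluster.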

How the data were processed

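The authors mapped PAR-CLIP reads to hg19, called clusters with PARalyzer in PARpipe at default settings and used GENCODE v19 categories. The sources used here give no versions of these programs, and the submitters' processing notes name bcl2fastq 2.17.1. Per the file headers, the deposited table holds counts of clusters per gene and category and counts of crosslinked reads without normalization, and NXPM, a score that the authors scaled to all crosslinked reads and divided by RNA abundance. The study describes sites as those shared by both replicates. The table has 1 value per cell line and no column of another sample.

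Values were read with pandas 2.3.3, and intervals at 95% were computed with scipy 1.17.1. Abundance was recovered as scaled reads over NXPM minus 0.001, and both PAR-CLIPs gave the same value within 1% for all 5669 genes compared. Region lengths and sequences are those of canonical protein-coding transcripts in GENCODE release 44 on GRCh37, which is the same build as hg19. TIGAR was used for the older symbol C12orf5. Ratio and interval code was tested on simulated data. The genes and lists were chosen with earlier results of these data known, and the 20-point step was chosen after the values were seen. Named list genes are the 6 with the most FH-DHX36-E335A reads and any with more FH-DHX36 reads, besides the 4 genes themselves and, for each, the 3 most alike genes. CHEK1 was named after its value was seen. A comparison of replicates was not analysed here.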

Additional observations from a re-analysis of the deposited data

How the results depend on the processing

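No paired analysis was possible because both replicates of a line share 1 column, and for the same reason leaving out a replicate was not run. Intervals cover counting error only, and a region without a cluster may still hold reads that were not listed. Of 75 alternatives, 48 changed neither the direction nor the value beyond its interval, or beyond 1.5 times for a count. Another 26 moved the value and 1 turned the direction. The 48 are not a measure of robustness, since some could not change. The longest transcripts of MDM2, MDM4 and PPM1D had the region lengths of the canonical ones, and scaling to another total changes the ratio of every gene by 1 common factor. Counting exonic reads alone moved the MDM2 ratio to 8.44 and turned that of MDM4 to 1.16, since the intronic reads of FH-DHX36 then drop out. Counted by clusters, MDM2 had 20.0% of FH-DHX36 clusters in introns and 29.2% of FH-DHX36-E335A clusters in the CDS, MDM4 60.0% and 60.9% in the 3'UTR, and PPM1D 54.5% in the CDS with FH-DHX36-E335A. Over exonic reads, the CDS held 70.1% of FH-DHX36-E335A reads on MDM2, and the 3'UTR 85.8% and 53.9% on MDM4 and 100% and 89.6% on CDKN1A. Among genes with an abundance of at least 1, the NXPM percentile was 77.5 and 91.0 for MDM2, 95.5 and 96.2 for MDM4, and with FH-DHX36-E335A 64.7 for PPM1D and 38.2 for CDKN1A. With runs of at least 3 G, MDM2 and MDM4 held 1 match each and PPM1D and CDKN1A 0, and with gaps of up to 12 bases there were 10, 27, 12 and 13. The counts with longer gaps were not compared with transcripts of like length. At least 2 FH-DHX36 clusters were present on 11 of 24 regulators and 12 of 28 targets, compared with 12.7% of all listed genes.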

Other observations

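The study names AU-rich sequence beside G-rich sequence, and ATTTA, the core of AU-rich elements, was counted on the sense strand with overlaps allowed. The MDM2 3'UTR held 23 copies, and 9.76% of the 1025 3'UTRs within 20% of its length held at least as many, with a median of 12. MDM4 held 19 copies, where the median of like-sized 3'UTRs was 18, PPM1D 5 compared with 6, and CDKN1A 3 compared with 3. At least 1 copy was present in 99.1%, 100%, 95.3% and 85.6% of these sets.

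Of the 9 G-run matches in the MDM4 3'UTR, 5 were sequences that recur across transcripts. The 15 nt match ggaggctgaggcagg, at chr1:204521295-204521309, is present in the canonical transcripts of 1140 genes, and a 12 nt sequence that occurs at 2 places of this 3'UTR is present in 344. Reads of such stretches can be placed only where they reach unique sequence. How many reads of MDM4 come from them was not tested.

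Base composition differed among the 3'UTRs. G made up 24.8% of the CDKN1A 3'UTR, 20.9% of MDM4, and 19.6% and 19.7% of MDM2 and PPM1D, compared with 21.3% over all 3'UTRs. U, the base that carries the crosslink, made up 26.4% on CDKN1A, 31.9% on MDM4, 32.7% on MDM2 and 34.5% on PPM1D, compared with 30% over all 3'UTRs.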
